A study of Arabidopsis thaliana with 3 samples.

Results

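The genes described here are the TSO1-like CXC domain regulators of Arabidopsis thaliana, a family of 8 loci that includes SOL1 and TSO1. Their signals in germinating pollen were set against those in seedlings. A locus was measured if the platform annotation listed it on a probe set with exactly 1 gene, and the brightest such probe set was to be taken. This gave 5 of the 8 loci, among 13513 such probe sets, and each of the 5 had a single probe set, so brightness chose nothing. SOL1 (AT3G22760), TSO1 (AT3G22780), AT4G29000, AT2G20110 and AT3G16160 were measured, while TCX2 (AT4G14770), AT3G04850 and AT5G25790 were not analysed here. The family was chosen by the signal of SOL1, which stood out between pollen and seedlings on these same arrays, so the SOL1 values are a description without a test. The CXC domain is a cysteine-rich stretch that binds DNA, and most proteins of the family carry a pair of them. In animals the related protein LIN54 is a DNA-binding subunit of the DREAM complex, which holds cell cycle genes in check. In Arabidopsis TSO1 is known for its part in cell division and organ formation in flowers, and SOL1 and TCX2 for the control of divisions in the stomatal lineage of the leaf.

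Total RNA of the accession Col-0 was hybridised to Affymetrix ATH1 arrays, where several short oligonucleotides, together called a probe set, report 1 signal for a gene. The germinating pollen group has 2 arrays of pollen with pollen tubes, grown at 25°C for 6 h with 13.5% sucrose in the medium, where about 80% of the grains had germinated per the labels. The seedling group has 1 array of whole young seedlings, roots included, that had formed their first rosette leaves. The study asked which genes dominate in germinating pollen. Each labelling used 10 µg of total RNA, and the labels and design text differ on the light cycle of the plants. Whether the RNA of the 2 pollen arrays had separate sources is not stated, so the p-values may reflect technical spread only. The 3' over 5' signal of the ubiquitin control, which reflects RNA quality, was 2.02 and 2.42 in pollen, against 1.59 in seedlings, and its part in the differences was not tested. Both tissues are bulk samples, in which fewer cells of a type and less RNA per cell cannot be told apart.

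The tissues were described with marker genes. Their lists were drawn up with earlier results of these data known, so the counts are no independent check. Among all tested probe sets, 22.1% were called higher in pollen and 31.7% lower by limma. Of 13 pollen tube genes 12 were measured and 12 were higher in pollen by limma, with summed signals of 164740 and 164510 on the pollen arrays against 371 in seedlings. ANX1, a receptor kinase of the pollen tube surface, had 4520 and 5759 in pollen, and its seedling signal was 2.06. The sperm histone gene MGH3, the only one measured of 11 sperm genes, had 892 and 811 in pollen against 2.35 in seedlings. All 8 green leaf genes were measured, with signals that summed to 208.8 and 242 in pollen, against 39599 in seedlings, and 7 were lower in pollen. The tapetum is the anther layer that feeds developing pollen, and 2 of its 7 marker genes were measured, with sums of 23.7 and 88.0 in pollen against 3.04 in seedlings. Root genes were measured for 2 of 7, with sums of 234 and 157 in pollen against 45.6 in seedlings, and 1 was higher. The part of other cell types in the values below was not tested. Bacterial control probe sets without a plant target reached at most 47.1 and 65.7 in pollen, against 14.3 in seedlings. Each of the 2 tapetum genes was under these values on every array and was not tested, so their sums are not a usable signal. A floor was set at 42.3, the median of all signals. Both root genes were under it in seedlings (EXPA7 22.0, EXPA18 23.6), although their sum is above it.

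Among the 5 measured family members, SOL1 had the strongest signal in pollen relative to seedlings. Its signal was 8470 and 9286 on the pollen arrays, against 55.6 in seedlings. The pollen arrays lay close together, with the second at 1.10 times the first, and both were far above the seedling array. The mean pollen signal of 8878 ± 577 (SD, n = 2) was 159.6 times the seedling signal, and the log2 difference was 6.98. Log2 differences here are of the signal plus an offset of 14.7, pollen minus seedlings, which understates the change of dim genes. The seedling signal lay above the floor but near it, and its spread is unknown, so the size of the fold is uncertain. By rank within each array, SOL1 was brighter than 99.1% and 99.2% of the 22746 probe sets in pollen and than 53.9% in seedlings. Probe sets differ in how brightly they bind, so such a rank is not an amount of RNA. Of 14815 tested probe sets SOL1 held rank 281 by log2 difference.

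TSO1, the gene that gave the family its name, went the other way. It had signals of 22.4 and 7.86 on the pollen arrays, against 149 in seedlings. Both pollen arrays were under the floor, and each was also under the brightest bacterial control of its array, so pollen gave only a bound. Against the floor, TSO1 was at least 3.52-fold lower in pollen, and at least 2.64-fold lower against that control. The log2 difference was -2.50 (SE 0.53), with a limma adjusted p = 0.0209 by Benjamini-Hochberg over all tested probe sets. The pollen arrays differed from each other, the second being at 0.351 times the first, though both were below the seedling array. TSO1 was not called without the offset (log2 difference -3.49, limma adjusted p = 0.0744) or when no probe set was filtered out for low signal (log2 difference -2.50, limma adjusted p = 0.0748). In within-array rank TSO1 was brighter than 38.6% and 18.9% of probe sets in pollen and than 77.0% in seedlings.

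**Figure D1:**
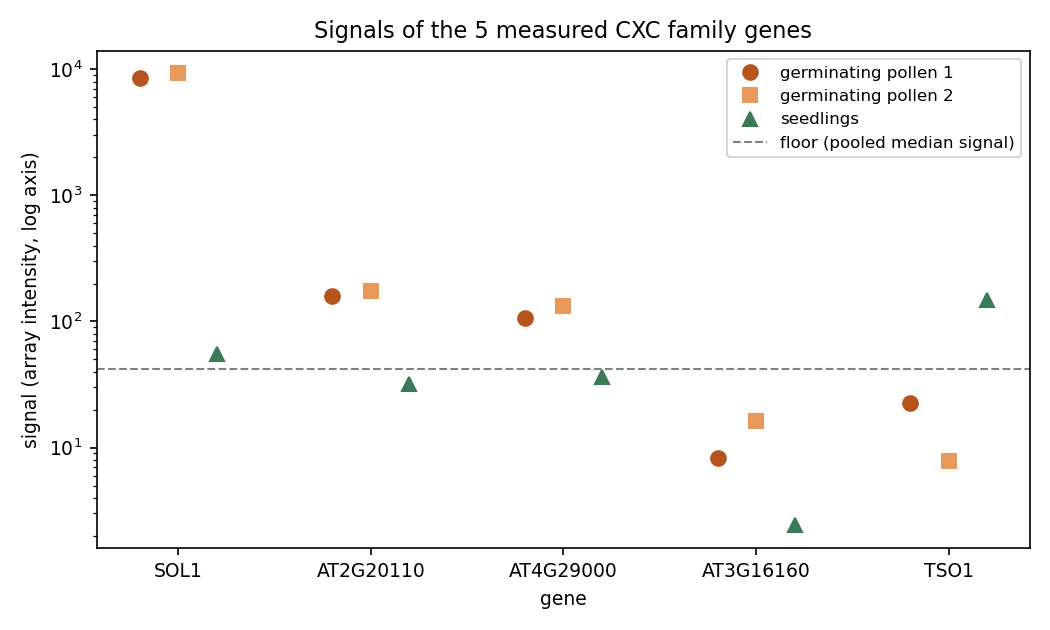
Signals of the 5 measured family genes on a log axis, with 1 point per array (germinating pollen 1, germinating pollen 2, seedlings) and the floor of 42.3 as a dashed line. SOL1 had 8470 and 9286 in pollen against 55.6 in seedlings, whereas TSO1 had 22.4 and 7.86 in pollen against 149 in seedlings.

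AT2G20110 was modestly higher in pollen. Its signal was 158 and 174 on the pollen arrays, against 31.97 in seedlings. Both pollen signals were above the highest control on their array, and the seedling signal was under the floor but above the highest seedling control. Against the floor, AT2G20110 was at least 3.92-fold higher in pollen (166 ± 10.9, SD, n = 2), and the log2 difference was 1.95 (SE 0.37, limma adjusted p = 0.0155). When arrays were scaled by the hybridisation spikes, bacterial and phage transcripts used as array controls, the difference was 0.074 and was no longer called (limma adjusted p = 0.853).

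AT4G29000 did not pass the test. It had 107 and 133 in pollen, against 36.2 in seedlings, where the signal was again under the floor. The log2 difference was 1.40 (SE 0.44, limma adjusted p = 0.0595). It passed after quantile normalisation (limma adjusted p = 0.0385), after scaling by the 75th percentile (limma adjusted p = 0.0253) and without a variance trend (limma adjusted p = 0.0417), whereas spike scaling turned the difference to -0.49 (limma adjusted p = 0.319). Both AT4G29000 and AT2G20110 were in the upper part of the pollen arrays by rank. AT4G29000 was brighter than 79.2% and 82.6% of probe sets in pollen and than 44.8% in seedlings, and AT2G20110 than 84.9% and 86.0% in pollen and 42.2% in seedlings.

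AT3G16160 gave no usable signal in either tissue. Its values were 8.22 and 16.2 in pollen, against 2.42 in seedlings, all under the floor and under the highest control of their array. It was not tested and no fold is given.

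Of the 5 measured members 4 passed the signal filter. SOL1 is described without a test, and the 3 tested members divided into 1 higher, 1 lower and 1 that did not pass. Among all 14815 tested probe sets 53.8% were called, 22.1% higher in pollen and 31.7% lower, so 2 calls among 3 genes is near the share in the whole table. Each of the 3 entered the test through its brighter tissue, as the other was under the floor, so these calls are no independent evidence. With no filter, 2627 of 22746 probe sets were higher and 3161 lower. AT2G20110 was then still called, while TSO1 and AT4G29000 were not. Of all calls, 41.1% were higher in pollen, a share that was 53.1% with scaling by the 75th percentile and 11.1% with spike scaling. A lower difference than that of SOL1 was found for 98.1% of tested probe sets, than that of AT2G20110 for 84.8%, than that of AT4G29000 for 78.1% and than that of TSO1 for 18.7%.

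**Figure D2:**
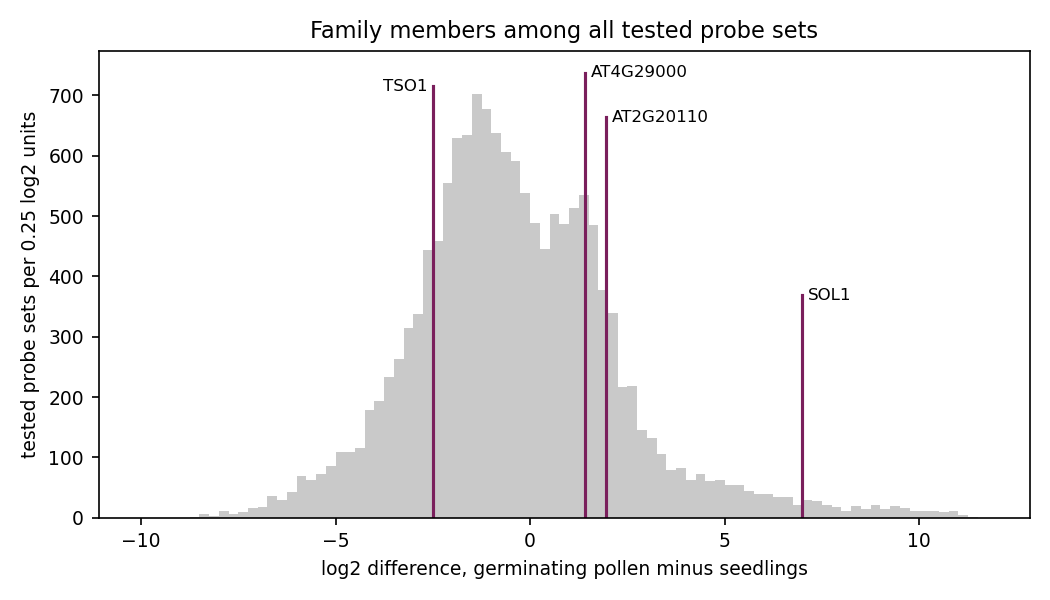
Histogram of the log2 difference, germinating pollen minus seedlings, of the 14815 probe sets that passed the signal filter. Vertical lines mark the 4 family genes among them, of which SOL1 is described without a test (line heights carry no value). TSO1 stands at -2.50, AT4G29000 at 1.40, AT2G20110 at 1.95 and SOL1 at 6.98.

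The position of the differences relative to 0 changed with how the arrays were scaled. The median log2 difference of the tested probe sets was -0.61 with the trimmed mean scaling used here, -0.30 after quantile normalisation, -0.14 with the 75th percentile and -2.59 with the spikes. Measured from that median, SOL1 stood at 7.59, 7.04, 7.61 and 7.50 in the same order of scalings. AT2G20110 stood at 2.56, 2.50, 2.52 and 2.66, and AT4G29000 at 2.00, 1.98, 1.98 and 2.09. TSO1 stood at -1.89, -1.84, -1.93 and -1.78. AT3G16160, under the floor, stood at 1.24, 0.83, 0.92 and 2.59. Scaling by a trimmed mean, a percentile or spikes multiplies a whole array by 1 factor, which shifts bright genes and the median together, so near-equal distances follow from the construction. The spikes themselves were 4.998 and 4.79 times as bright on the pollen arrays as on the seedling array (geometric mean of 18 probe sets).

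**Figure D3:**
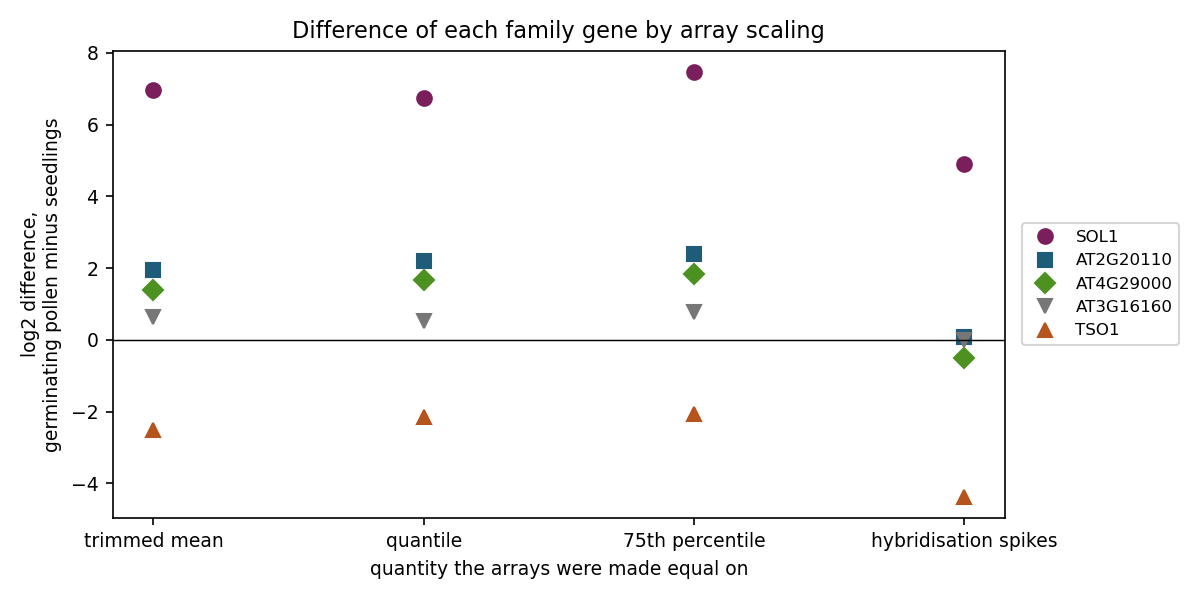
Log2 difference, germinating pollen minus seedlings, of the 5 measured family genes after scaling the arrays to an equal trimmed mean, by quantiles, to an equal 75th percentile or to equal hybridisation spikes. SOL1 stays the highest (4.92 with the spikes) and TSO1 the lowest (-4.37 with the spikes), while AT4G29000 crosses 0 under spike scaling.

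SOL1 and TSO1 are close neighbours on chromosome 3 in the TAIR10.1 annotation, with AT3G22770 as the only protein-coding gene between them. The genes beside family members were read for their position, a choice made after the data were seen. AT3G22750, on the far side of SOL1, had 3682 and 2757 in pollen, against 43.4 in seedlings. Like SOL1 it was bright on both pollen arrays, with the seedling signal close to the floor. It was 74.1-fold higher (log2 difference 5.78, SE 0.21, limma adjusted p = 0.00018) and remained called under spike scaling (3.77). AT3G22770 had 27.3 and 44.1 in pollen, against 11.2 in seedlings. It was not tested. NET1A, on the far side of TSO1, belongs to the NET family of actin-binding proteins. It had 3.24 and 9.59 in pollen, against 44.9 in seedlings. It was called lower (log2 difference -1.51, SE 0.26, limma adjusted p = 0.0122), but the seedling signal was barely above the floor. Without the offset it was not called (log2 difference -3.01, limma adjusted p = 0.0826) nor with no filter (log2 difference -1.51, limma adjusted p = 0.103), and NET1A did not enter the test after quantile normalisation or with the 75th percentile.

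**Figure D4:**
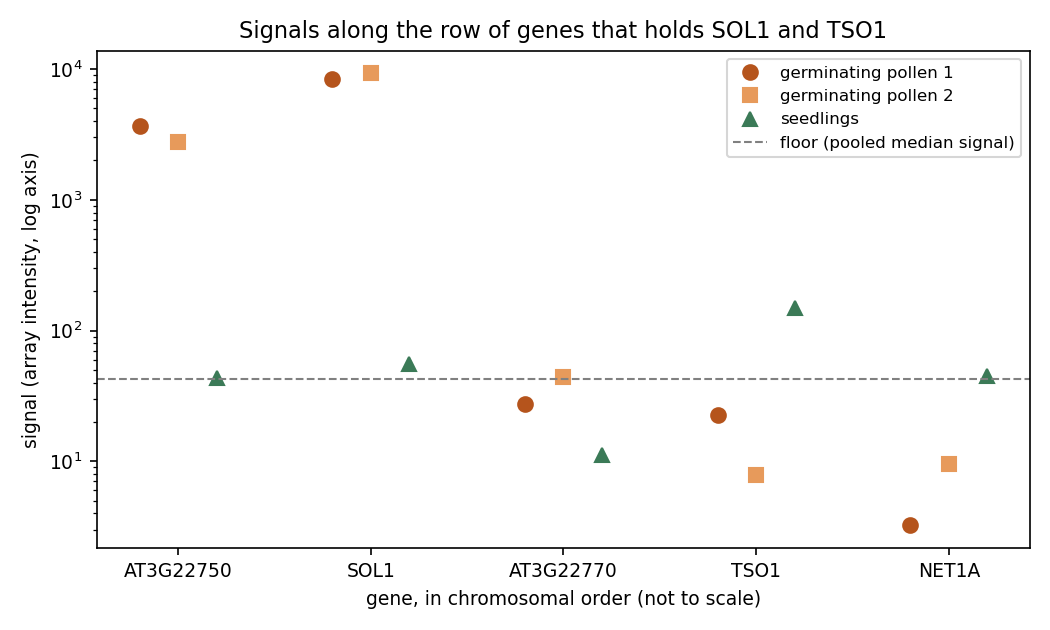
Signals of 5 neighbouring genes on chromosome 3 in their order along the chromosome (spacing not to scale), on a log axis with 1 point per array and the floor of 42.3 as a dashed line. AT3G22750 and SOL1 lie between 2757 and 9286 in pollen, while AT3G22770, TSO1 and NET1A lie between 3.24 and 44.1 there.

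TCX2 itself was not analysed here, but both genes beside it were measured. AT4G14780 had 1246 and 1212 in pollen, against 8.62 in seedlings. It was at least 29.0-fold higher (log2 difference 5.73, SE 0.17, limma adjusted p = 9.7e-05). NET1B, on the other side and a relative of NET1A, had 12.3 and 41.3 in pollen, against 77.3 in seedlings. It did not pass (limma adjusted p = 0.162). Under spike scaling it was called lower (limma adjusted p = 0.0132), as were 11972 of 17776 tested probe sets. Of the 15 protein-coding genes directly beside a family locus 11 were measured and 8 tested. Of these 8, 4 were higher in pollen and 3 lower, where 22.1% and 31.7% of all tested probe sets were, and their median log2 difference was 0.40. Neighbours did not all go like their family member. The 2 genes beside AT4G29000 were called in opposite directions. AT4G28990 was higher (385 and 333 in pollen, against 75.3 in seedlings) and AIM1 lower (35.3 and 39.8 in pollen, against 299.7 in seedlings). Their log2 differences were 2.05 and -2.59 (limma adjusted p = 0.0036 and 0.0113). Neither gene was examined under the other scalings.

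The 5 genes whose pattern was most like that of SOL1 were taken by the smallest Euclidean distance over the log2 signals of the 3 arrays. The closest was AT3G20300, at a distance of 0.32, with 8836 and 8517 in pollen against 71.2 in seedlings. AT3G59350 followed at 0.47, with 11683 and 9883 in pollen against 53.6 in seedlings. PLIM2b, an actin-bundling LIM protein of pollen, stood at 0.62 with 9244 and 8258 in pollen against 32.2 in seedlings. SGP2 stood at 0.66 and AT2G13350 at 0.84. All 5 had pollen signals between 8258 and 12928 and seedling signals between 28.1 and 71.2. Likeness over 3 arrays rests on little more than the contrast of the tissues.

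Cell cycle genes are known targets of DREAM complexes in animals and plants. Of 19 partners of the complex in plants 0 were measured, so the rest of the complex was not analysed here, and the same holds for the 9 genes of DNA methylation maintenance. The annotation used did not list 8730 of the 22746 probe sets, so genes not measured here may still be on the arrays. In the list of G2/M and cytokinesis genes 4 of 31 were measured, and 3 were higher in pollen while 0 were lower, where 22.1% and 31.7% of all tested probe sets were. All 3 encode Aurora kinases, which act on chromosomes and the division plane at mitosis. AUR1 had 2174 and 2135 in pollen, against 139 in seedlings, a 15.5-fold difference (log2 difference 3.82, SE 0.11, limma adjusted p = 8.6e-05). AUR2 had 2641 and 3258 in pollen against 77.1 in seedlings, which is 38.3-fold higher (log2 difference 5.005, SE 0.17, limma adjusted p = 0.00014). AUR3 had 460.3 and 413 in pollen against 47.6 in seedlings, 9.18-fold higher (log2 difference 2.86, SE 0.22, limma adjusted p = 0.0015). Its seedling signal was near the floor, so the size of this fold is uncertain. The Aurora genes were also called higher under spike scaling, with log2 differences of 1.63, 2.89 and 0.85. AT1G63100, the other measured gene of the list, did not pass and was uneven in pollen (62.5 and 11.8, against 56.7 in seedlings). The list's median log2 difference was 3.34, beside -0.61 for all tested probe sets. The list of G2/M genes was drawn up with the AUR1 and AUR2 results known, so its count is no independent evidence.

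In the S-phase list, 1 of 17 genes was measured. MCM7, a subunit of the helicase that opens DNA for replication, had 842 and 931 in pollen, against 171 in seedlings. It was 5.18-fold higher (log2 difference 2.28, SE 0.14, limma adjusted p = 0.00088), but under spike scaling the difference was 0.079 and not called (limma adjusted p = 0.672).

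The measured stomatal lineage genes had low signals in both tissues, none over 62.3. The transcription factors SPCH, MUTE and FAMA drive successive steps of the lineage in which SOL1 is known to act, and they were the 3 measured of 16. SPCH had 31.5 and 3.76 in pollen, against 45.3 in seedlings. FAMA had 35.04 and 48.0 in pollen, against 62.3 in seedlings. MUTE had 13.8 and 8.35 in pollen, against 4.57 in seedlings. SPCH and FAMA were tested, and 0 passed in limma, with 0 also at an unadjusted p under 0.05. Among all tested probe sets 22.1% were called higher in pollen and 31.7% lower by limma, so 0 calls among 2 genes says little. Under spike scaling SPCH and FAMA were both called lower, as were 11972 of 17776 tested probe sets. The median log2 difference of SPCH and FAMA was -0.75, beside -0.61 for all tested probe sets.

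**Figure D5:**
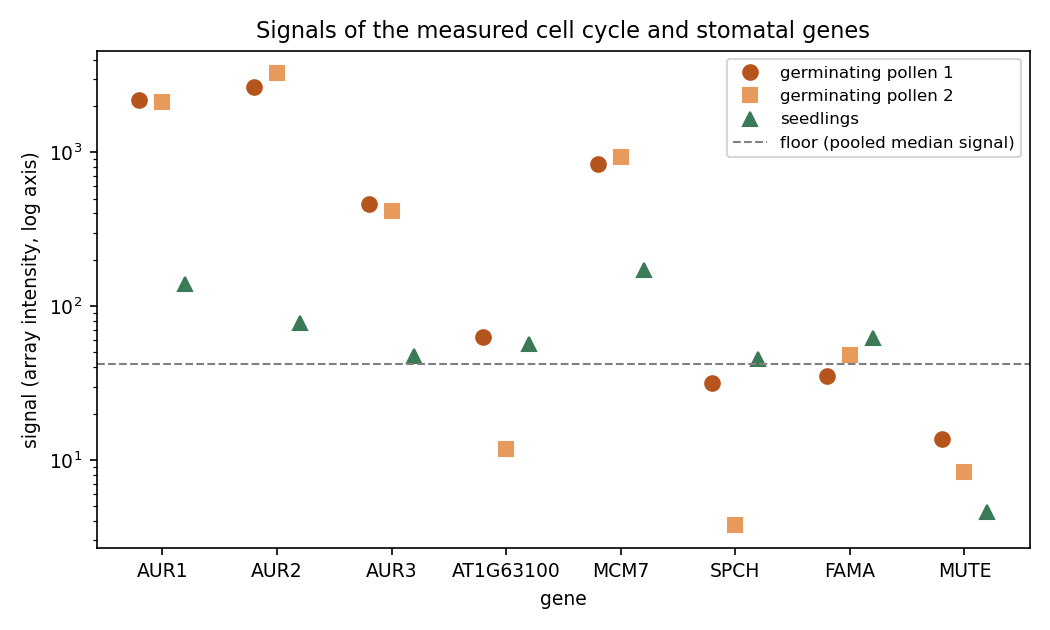
Signals of the 5 measured cell cycle genes (AUR1, AUR2, AUR3, AT1G63100, MCM7) and the 3 measured stomatal lineage genes (SPCH, FAMA, MUTE) on a log axis, with 1 point per array and the floor of 42.3 as a dashed line. The Aurora genes and MCM7 lie between 413 and 3258 in pollen and between 47.6 and 171 in seedlings, while the stomatal genes lie between 3.76 and 48.0 in pollen and between 4.57 and 62.3 in seedlings.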

How the data were processed

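The authors deposited linear array intensities from MAS5, per the submitters' processing notes, and the design text names GCOS 1.2 and Excel 2004. The arrays had equal 2% trimmed means of 122 as deposited, so they had been scaled to a common level. Detection calls and scanner files were not used here, and the genome build is not given in the sources used here. Equalising these means exactly changed the signals very little. Before log2, 14.7 was added to each signal (their 30th percentile). Of 22746 probe sets without the 64 array controls, 14815 were tested, namely those over the floor of 42.3 in seedlings or on both pollen arrays. The test was limma 3.58.1 in R 4.3.3 (lmFit, then two-sided eBayes with its variance trend), with Benjamini-Hochberg adjustment over all tested probe sets and a threshold of 0.05. It was tested on simulated data, where the seedling array was given the spread of the pollen arrays, so equal spread was not tested. The spread came from the pollen arrays (1 residual degree of freedom), moderated by eBayes towards a trend over all tested probe sets. This spread was assumed to hold for the lone seedling array. The number of arrays limits the precision. Where a tissue was under the floor, its signal was raised to it and the fold is a bound. Other folds are ratios of mean signals. The annotation gave exactly 1 gene for 13513 probe sets, of which 13484 matched a locus of the TAIR10.1 table, used for names and gene order only. A further 503 probe sets had several genes, and 8730 were not listed. Genes named are all family members, the called genes of each list, the 5 most like SOL1 and the markers by their signals. The neighbours of SOL1, TSO1, TCX2 and AT4G29000 were added later, and other neighbours are only counted. The members and lists were chosen with earlier results of these data known. Alternatives were other scalings, offsets, variance models, filters and floors, and leaving out each pollen array.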

Additional observations from a re-analysis of the deposited data

How the results depend on the processing

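The log2 difference of SOL1 was 6.74 after quantile normalisation, 7.47 with the 75th percentile, 4.92 with the spikes, 7.32 without the offset and 6.67 with an offset of 32. TSO1 was -3.49 without the offset and -2.50 with no filter, and was not called in either, while it was called under the other 5 alternatives with a test. AT4G29000 was called with quantile normalisation (1.68), the 75th percentile (1.84) and no variance trend (1.40). AT2G20110 lost its call with the spikes (0.074). AT3G16160, under the floor on all 3 arrays, was 0.0081 with the spikes and 2.25 without the offset. With the floor at the highest control without a target, the ratio was 3.32 for AT4G29000 and 5.19 for AT2G20110. Spike scaling gave 1489 higher and 11972 lower calls among 17776 tested probe sets, against 3280 and 4692 among 14815. It also gave 1 lower call in the G2/M list, 0 higher in the S-phase list and 2 lower in the stomatal list. Most tested probe sets were called lower there, so these lower calls say little about the listed genes. The cause of the shift under spike scaling was not tested. Leaving out 1 pollen array gave 6.91 to 7.05 for SOL1, -2.86 to -2.14 for TSO1, 1.26 to 1.54 for AT4G29000, 1.89 to 2.01 for AT2G20110 and 0.42 to 0.85 for AT3G16160. These values have no test, since 1 array against 1 leaves no residual degree of freedom, and for the same reason no count of calls was made. Averaging a gene's probe sets was not run, as each measured member had 1. No paired analysis was possible because the seedling group has a single array.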
